A study of Homo sapiens with 13 samples.

Results

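The interaction of chloroquine and 5-fluorouracil (5-FU) asks whether RNA levels under both drugs equal what the 2 drugs do one at a time, and it was computed over all 13 of the 13 libraries of the series. All groups were TE11, an established human cell line that the labels give as an esophageal squamous cell carcinoma, cultured for 48 h with 10 µM chloroquine plus 25 µM 5-FU (combination, n = 3), 25 µM 5-FU alone (n = 3), 10 µM chloroquine alone (n = 3) or 0.1% DMSO (vehicle, n = 4). The labels name no line other than TE11, give no DMSO content for the drug groups, and do not say whether replicates came from separate cultures. The spread that the p-values rest on may therefore be technical. For each gene the interaction is the log2 effect of chloroquine in the presence of 5-FU minus its effect without 5-FU. This equals the log2 change of the combination from vehicle minus the sum of the changes under each drug. Genes with a positive value are called above additive here and genes with a negative value below additive. Of 19514 genes tested, 7791 were called (39.9%, edgeR quasi-likelihood test, Benjamini-Hochberg adjusted p under 0.05), 4019 above additive (20.6%) and 3772 below (19.3%).

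Chloroquine is a weak base that collects in lysosomes, raises their pH and blocks the fusion of autophagosomes with them, so that autophagic cargo is not broken down. 5-FU is a pyrimidine analogue whose metabolites inhibit thymidylate synthase and enter DNA and RNA, where they disturb ribosomal RNA processing. Both treatments are known to bring about stress programmes that overlap, among them the p53 response to DNA and ribosome damage, the integrated stress response through ATF4, and control of heat shock genes by HSF1. The title of the series places the combination in the context of 5-FU sensitivity and p53 signalling.

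The 13 libraries held 17834539 to 23679833 counts. Vehicle 4, chloroquine 1 and 2, 5-FU 2 and combination 2 held 153 to 741 counts of the collagen gene COL1A2, a fibroblast marker, against 1 to 7 in the other 8, which makes 2 of the 3 chloroquine libraries and 1 library in every other group. Summed counts of the 11 fibroblast markers were 703 to 2594 in those 5 libraries and 226 to 652 in the other 8. Of the 6 markers tested 0 were called in the interaction, though their median interaction was -1.07. Transcripts that differ this much between libraries of the same group can hardly be called, so the lack of a call says little. The same 5 libraries held summed counts of 51 to 545 for 7 blood and salivary markers and 155 to 298 for 11 leukocyte markers, against 13 to 82 and 62 to 171 in the other 8. AMY1A, salivary amylase, had 146 to 292 counts in 4 of the 5, and 2 in combination 2. Of 7 leukocyte markers tested 2 were below additive (median -2.11), and of 4 blood and salivary markers 0 were called (median -0.771). The part of these transcripts in the results was not tested beyond leaving the libraries out. In the 8 libraries taken alone 5544 genes were called, 5183 of them with the same sign as in all 13, and chloroquine then rests on 1 library. Markers of squamous epithelium were mixed. Some defining ones were at or near 0 counts in every library: KRT5 had 0 to 2 counts, TP63 0 to 3, KRT14 0 to 12 and IVL 0 to 1, whereas KRT18, a keratin of simple epithelia, had 747 to 1361. In the 8 libraries 19 of 24 squamous differentiation markers and 8 of 17 basal squamous markers stayed at 10 counts or fewer, but others were detected, so that the summed counts were 1255 to 2795 and 3780 to 6674 over all 13 libraries. The libraries also differed in how levels depended on the GC content of transcripts, most of all with 5-FU alone, as given at the end.

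Most departures ran against the single effects. For 7114 of the 7791 called genes the interaction had the sign opposite to the sum of the single log2 effects, and for 677 it had the same sign. The median absolute interaction of called genes was 0.587 on the log2 scale, and the median interaction of all tested genes was -0.00206. An absolute log2 value of at least 1 was reached by 1806 called genes (9.25%), of which 185 were above and 1621 below additive. The sum and the interaction are computed from the same vehicle, chloroquine and 5-FU libraries, so the counts by direction are given as a description. Scaling by library size alone shifted the median interaction to -0.141 and gave 2379 genes above and 5063 below (32.0% of calls above).

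**Figure D1:**
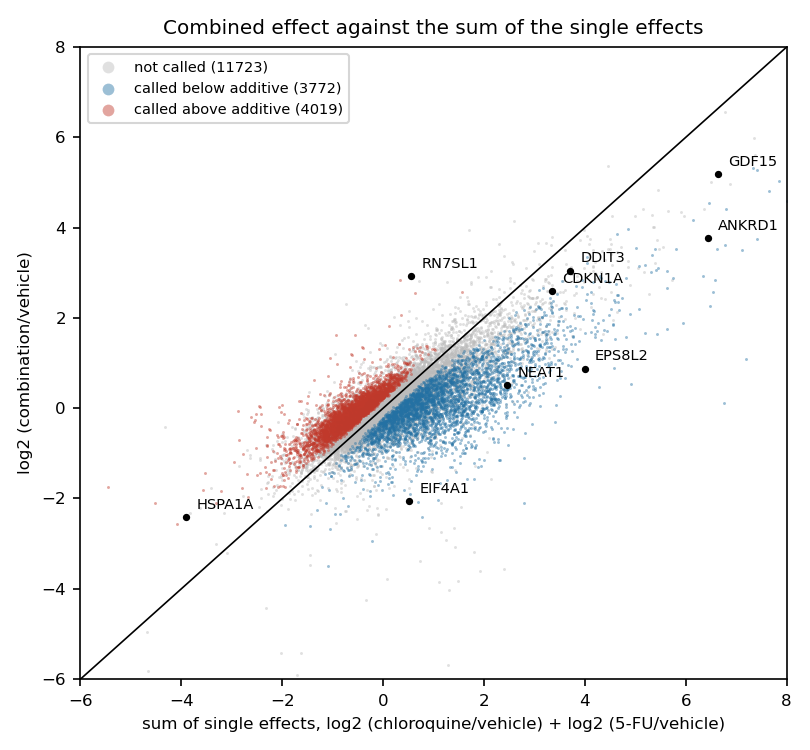
Log2 change of the combination from vehicle (y axis) against the sum of the log2 changes under chloroquine and under 5-FU (x axis), with 1 point a gene and the line of additivity in black. Genes called below additive (3772, blue) lie mostly right of 0 on the x axis and genes called above (4019, red) mostly left of it, so the cloud is flatter than the line. 8 genes fall outside the axes.

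Genes were sorted by their calls under each drug alone. Chloroquine raised 3952 genes (20.3%) and lowered 3730 (19.1%), and 5-FU raised 6003 (30.8%) and lowered 5756 (29.5%). Of 2090 genes that both drugs raised, 1541 were below additive, 15 above and 534 not called: their median log2 change was 0.64 in the combination, where the sum of the single changes had a median of 1.54. Of 2118 genes that both drugs lowered, 1628 were above additive and 12 below, with a median of -0.422 in the combination and -0.885 for the sum. A smaller share departed where the drugs did not share a direction. Of genes that both raised 74.4% were called, and of genes that both lowered 77.4%. The share was 45.8% for genes changed by chloroquine only and 36.3% for those changed by 5-FU only. It was 37.1% for genes raised by chloroquine and lowered by 5-FU, and 40.1% for the reverse. Of 5510 genes that neither drug changed by the test, 400 were above and 400 below.

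**Figure D2:**
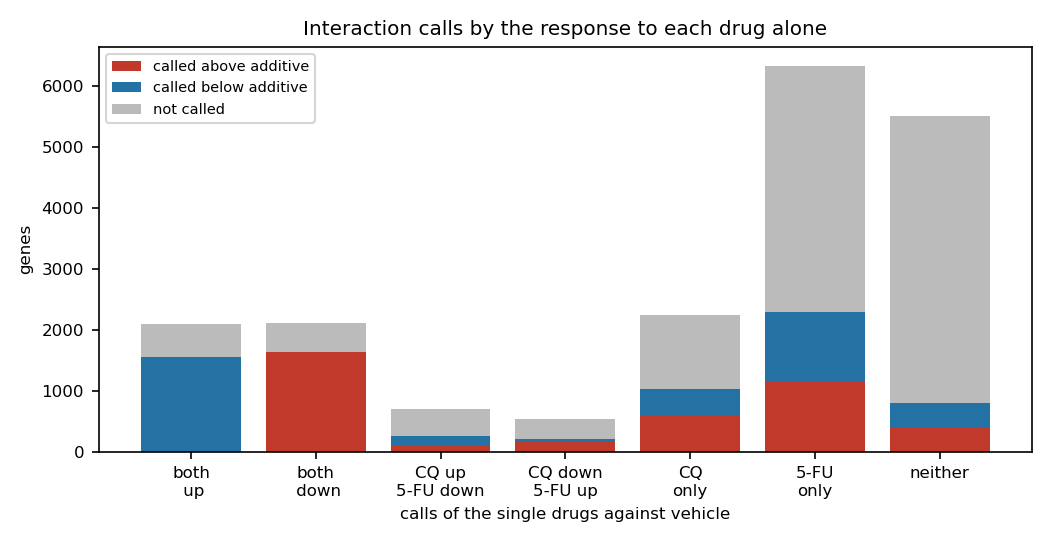
Number of genes (y axis) in each class of response to the single drugs (x axis, CQ is chloroquine), divided into genes called above additive, below additive and not called. The 2090 genes raised by both drugs were mostly called below additive and the 2118 genes lowered by both mostly above. Genes changed by 1 drug only were called in both directions in similar numbers.

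Falling short of the sum did not usually mean a loss of the response. Against vehicle, the combination raised 5489 genes (28.1%) and lowered 5312 (27.2%). Of the 1541 genes raised by both drugs and below additive, 978 were still above vehicle in the combination, 463 were not called against vehicle and 100 were below it. The combination was below each of the single drugs in 399 of them and above each in 37. Of the 1628 genes lowered by both and above additive, 1215 were still below vehicle, 401 were not called and 12 were above it. Over all tested genes, the combination stood above both single drugs in 1479 (7.58%) and below both in 1566 (8.03%).

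The same departures can be read as the effect of 1 drug in the presence of the other. With 5-FU present, chloroquine changed 7517 genes (38.5%, combination against 5-FU), and with chloroquine present, 5-FU changed 9867 (50.6%, combination against chloroquine). Among the 7791 genes with a called interaction, chloroquine alone changed 4697. Of these, 1760 were called in the opposite direction when 5-FU was present, 2519 were not called there, and 418 were called in the same direction. A further 2645 were called only with 5-FU present. For 5-FU, 5962 of the 7791 were changed by the drug alone, and 1314 of them went the opposite way with chloroquine present, 2813 were not called and 1835 went the same way. These 2 contrasts share the combination libraries.

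On a linear scale, where the excess over vehicle in CPM (counts scaled to an equal library size with TMM) is summed instead of the log2 change, only 24 of the 7791 called genes had a departure of opposite sign (0.308%). CDKN1A, DDIT3 and INSIG1 were among them and are described with their groups.

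Among the genes with the lowest interactions were 3 that each drug raised and in which the combination lay below both drugs. EPS8L2 encodes a relative of EPS8, an actin regulator and substrate of the EGF receptor. It had 3.85, 3.69 and 5.06 CPM in the combination, 8.28, 7.31 and 6.78 CPM with 5-FU, 11.4, 11.2 and 10.9 CPM with chloroquine and 2.31, 1.94, 2.67 and 2.17 CPM in vehicle. The combination libraries lay above vehicle and below both single drugs with no overlap, where additivity would have given 36.6 CPM, and the interaction was -3.12 ± 0.186 on the log2 scale (SE, edgeR adjusted p = 5.81e-08). Its exons overlap those of DEAF1 on the other strand, and since the strand setting of the counting was not stated, reads of the pair may be mixed. SLC34A3, a sodium-phosphate cotransporter best known from kidney, had 1.64, 1.44 and 2.17 CPM in the combination, 5.52, 3.13 and 5.54 CPM with 5-FU, 6.38, 5.57 and 7.01 CPM with chloroquine and 1.59, 1.65, 1.8 and 1.6 CPM in vehicle. Combination and vehicle libraries overlapped, so the rise seen with each drug was not seen with both (interaction -3.35 ± 0.291, edgeR adjusted p = 1.48e-06). MYO15B, a gene of the myosin family, stood above vehicle and below both single drugs, at 7.77 ± 0.831 CPM in the combination, 15.3 ± 1.66 CPM with 5-FU, 14.6 ± 0.356 CPM with chloroquine and 4.39 ± 0.601 CPM in vehicle (SD, n = 3, 3, 3 and 4). In ANKRD1 the combination was between the drugs. ANKRD1, an ankyrin repeat protein known as a target of the YAP coactivator, had 9.91, 11.7 and 11.1 CPM in the combination, 12.6, 16.3 and 14 CPM with 5-FU, 2.85, 4.21 and 4.58 CPM with chloroquine and 0.824, 0.799, 0.584 and 0.98 CPM in vehicle. It was raised in all treated groups, and the combination lay above chloroquine and below 5-FU (log2 difference from 5-FU -0.39 ± 0.143, adjusted p = 0.0444), with an interaction of -2.66 ± 0.25 (edgeR adjusted p = 3.08e-06).

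A different pattern appeared in EIF4A1, listed for an RNA helicase of translation initiation. Its counts were 2.81, 3.28 and 3.57 CPM in the combination, 18.4, 13.3 and 15.9 CPM with 5-FU, 17, 15.5 and 15.9 CPM with chloroquine and 13.1, 14.8, 12.9 and 12.7 CPM in vehicle. The combination libraries stood apart from all 10 others, below them, while the single drugs raised the gene, with log2 changes of 0.24 with 5-FU and 0.27 with chloroquine (edgeR adjusted p = 0.0499 and 0.0491). The interaction was -2.57 ± 0.162. EIF4A1 shares exons with a readthrough gene and holds several snoRNA genes, so the transcript behind these counts is uncertain.

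Immediate early and AP-1 genes, which code for transcription factors and phosphatases that follow growth factor and stress signals within minutes to hours, were mostly below additive. Of 26 members tested, 15 were below additive, 1 was above and 10 were not called, against 19.3% and 20.6% of all genes, with a median interaction of -0.815 where the median of all genes was -0.00206. Chloroquine alone raised 19 of the 26 and 5-FU alone 18, and the combination raised 19. Among all genes that both drugs raised 73.7% were below additive. EGR1, a zinc finger transcription factor, had 5.19, 5.66 and 4.51 CPM in the combination, 7.07, 6.85 and 5.82 CPM with 5-FU, 7.76, 7.38 and 8.08 CPM with chloroquine and 2.47, 1.03, 1.9 and 2.17 CPM in vehicle. Every treated library was above every vehicle library, and the combination libraries were below those of each drug alone, without passing the test against 5-FU (interaction -2.38 ± 0.263, edgeR adjusted p = 1.21e-05, additive expectation 26.9 CPM). FOS, a subunit of AP-1, had 3.37 ± 0.291 CPM in the combination, 3.98 ± 0.311 CPM with 5-FU, 2.91 ± 0.686 CPM with chloroquine and 0.853 ± 0.441 CPM in vehicle (SD), where additivity would give 13.5 CPM (edgeR adjusted p of the interaction = 0.000786). ZFP36, which encodes an mRNA decay factor, and JUNB, another AP-1 subunit, gave interactions of -1.73 ± 0.174 and -1.29 ± 0.146. The exception above additive was KLF6, a zinc finger factor, with 64.7, 64.5 and 72.5 CPM in the combination, 30.2, 31.1 and 30.9 CPM with 5-FU, 57.4, 55.3 and 63 CPM with chloroquine and 42.5, 40.9, 39.4 and 39.5 CPM in vehicle. Chloroquine raised it, 5-FU lowered it, and the combination was above all other groups (interaction 0.60 ± 0.0886, edgeR adjusted p = 0.000124). With a filter at 10 CPM in 3 libraries, which tests fewer members, 9 were below additive, and without 5-FU 1 or combination 1 the count above was 3 or 2.

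The promoter of EGR1 is shown because 2 copies of the CArG box, the site bound by serum response factor, lie in it. It runs from 250 bases before to 50 bases after the start of the gene (RefSeq, GRCh38.p14, chr5:138465229-138465528, plus strand), 5′ to 3′, and capitals mark the CArG boxes.
EGR1: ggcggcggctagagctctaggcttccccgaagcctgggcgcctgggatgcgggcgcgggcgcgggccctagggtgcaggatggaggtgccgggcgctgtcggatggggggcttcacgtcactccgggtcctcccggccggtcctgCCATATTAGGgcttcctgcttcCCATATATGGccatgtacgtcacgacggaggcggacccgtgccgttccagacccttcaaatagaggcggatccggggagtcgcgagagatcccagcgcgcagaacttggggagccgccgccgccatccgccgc
CArG boxes were found in 2 of 19 promoters of this list that had an entry, EGR1 and EGR2, and in 454 of all 35116 promoters (1.29%). EGR2 was not called, with an interaction of -0.798 ± 0.539 (edgeR adjusted p = 0.265).

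Other signalling lists leaned the same way, where 19.3% of all genes were below additive and 20.6% above. Of 10 tested NF-kB and cytokine genes, 5 were below additive and 1 above (3 below with a filter at 10 CPM), and of 14 interferon response genes 5 were below and 0 above (3 below in the 8 libraries, and 0 with the filter at 10 CPM). RELB, an NF-kB subunit, had 8.37 ± 0.11 CPM in the combination, 11.2 ± 1.85 CPM with 5-FU, 5.26 ± 0.463 CPM with chloroquine and 2.02 ± 0.387 CPM in vehicle, an interaction of -1.80 ± 0.201 (edgeR adjusted p = 1.26e-05). ISG15, an interferon-induced ubiquitin-like protein, had 4.2, 5.3 and 5.6 CPM in the combination, 7.7, 5.01 and 5.06 CPM with 5-FU, 9.64, 9.55 and 10.6 CPM with chloroquine and 4.18, 4.05, 4.28 and 3.35 CPM in vehicle. Chloroquine raised it in all 3 libraries above every other library, whereas the combination overlapped 5-FU and vehicle (interaction -1.55 ± 0.223).

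The p53 target list, the one nearest to the title of the series, rose in the combination for most members, while fewer were above than below additive. Of 37 members tested, the combination raised 34 above vehicle, 5-FU raised 32 and chloroquine 18, and 17 stood above both single drugs (7.58% of all genes did). By the interaction 7 were above additive (18.9%), 14 below (37.8%) and 16 not called, with a median of -0.121. All genes had 20.6% above and 19.3% below, so the share above was near that of all genes. The list therefore held genes in 3 positions: beyond both drugs and above additive, beyond both drugs at or below the sum, and not beyond both.

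In the first position were MDM2, RPS27L, KITLG, RRM2B, TIGAR, TRIAP1 and CCNG1. MDM2 encodes the ubiquitin ligase that degrades p53, and it had 188, 188 and 195 CPM in the combination, 140.2, 169.6 and 158 CPM with 5-FU, 104, 92.5 and 114 CPM with chloroquine and 116, 108, 115 and 111 CPM in vehicle. The combination libraries were above all others, while chloroquine alone did not change the gene by the test (log2 -0.12 ± 0.0722, adjusted p = 0.189), so that the interaction was 0.41 ± 0.104 (edgeR adjusted p = 0.00608). RPS27L, a ribosomal protein paralogue, had 118, 130.1 and 119 CPM in the combination, 79.7, 105 and 103 CPM with 5-FU, 58.9, 58.8 and 55.4 CPM with chloroquine and 67.2, 60.6, 62.3 and 59.1 CPM in vehicle (interaction 0.46 ± 0.123). KITLG, the ligand of the KIT receptor, had 68.6, 67.8 and 64.1 CPM in the combination, 42.7, 54.1 and 48.9 CPM with 5-FU, 45.1, 47.9 and 47.7 CPM with chloroquine and 49.7, 51.9, 51 and 49.4 CPM in vehicle. Neither drug changed KITLG by the test, and the combination was above the other 10 libraries (interaction 0.57 ± 0.0994, edgeR adjusted p = 0.000472). RRM2B, a subunit of a p53-inducible ribonucleotide reductase, and TIGAR, a regulator of glycolysis, had interactions of 0.35 ± 0.0944 and 0.46 ± 0.163. These calls were small: scaled by library size alone, 2 of the 37 members were above additive and MDM2, RPS27L, RRM2B and TIGAR no longer passed (edgeR adjusted p = 0.0554, 0.0549, 0.105 and 0.125), and with offsets for GC content and length 4 members were above additive. The call of TIGAR was the least stable of the list's named genes: it was lost in 12 alternatives, among them the 8 libraries (0.24, adjusted p = 0.216) and 8 omissions of a single library, namely vehicle 1, 2 or 3, chloroquine 1 or 2, 5-FU 2 and combination 1 or 3 (adjusted p = 0.0607 to 0.11).

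In the second position was CDKN1A, the gene of p21, which blocks cyclin-dependent kinases. It had 196, 181 and 196 CPM in the combination, 157, 131 and 144 CPM with 5-FU, 76.1, 68.5 and 66.7 CPM with chloroquine and 32.9, 32.1, 31.1 and 30.6 CPM in vehicle. Each group was separate from the next, in the order combination, 5-FU, chloroquine, vehicle. The combination exceeded 5-FU by 0.41 ± 0.0687 on the log2 scale (edgeR adjusted p = 0.00036), but it reached less than the 320.5 CPM given by log2 additivity (interaction -0.75 ± 0.0979, adjusted p = 4.76e-05). On the linear scale it exceeded the sum, by 8.06 CPM, so whether CDKN1A is above or below additive depends on the scale. TNFRSF10B, the death receptor DR5, had 209.7, 196 and 200.3 CPM in the combination, 165, 156 and 159 CPM with 5-FU, 159, 163 and 157 CPM with chloroquine and 85.7, 81.8, 81.7 and 83.8 CPM in vehicle. It was beyond both drugs and below additive (interaction -0.60 ± 0.0636), as was TP53INP1, a stress-induced autophagy protein (interaction -0.86 ± 0.131). Several targets beyond both drugs did not depart by the test. PMAIP1, the pro-apoptotic BH3 protein NOXA, had 220.4, 216 and 220.4 CPM in the combination, 131, 165 and 154 CPM with 5-FU, 152, 150.3 and 168 CPM with chloroquine and 125, 124, 119 and 112 CPM in vehicle, with an interaction of 0.16 ± 0.102 (edgeR adjusted p = 0.248), which turned to -0.20 with GC and length offsets (adjusted p = 0.00537). ZMAT3, an RNA-binding protein, and PHLDA3, an inhibitor of AKT, had interactions of 0.048 ± 0.105 and -0.062 ± 0.172 and did not pass.

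In the third position were DDB2, GDF15, BBC3 and BAX. DDB2, a DNA damage recognition protein, had 67.9, 69.8 and 71.7 CPM in the combination, 94.2, 89.6 and 93.3 CPM with 5-FU, 41.2, 38.1 and 39.2 CPM with chloroquine and 24.7, 24.9, 24.7 and 25 CPM in vehicle. All 4 groups were separate and the combination lay below 5-FU (log2 -0.40 ± 0.0483, edgeR adjusted p = 2.08e-05) although chloroquine alone raised the gene, giving an interaction of -1.07 ± 0.0691 (adjusted p = 1.1e-07). GDF15, a secreted stress cytokine, had 15.1, 15.9 and 15.9 CPM in the combination and 30.7, 24.1 and 24.8 CPM with 5-FU, where chloroquine and vehicle libraries had less than 1 CPM. Its interaction of -1.45 ± 0.354 rests on as few as 3 counts a library and was not called in the 8 libraries (-1.42, adjusted p = 0.107). BBC3, the BH3 protein PUMA, had an interaction of -0.53 ± 0.158 (edgeR adjusted p = 0.0157), which did not pass with GC and length offsets (-0.18, adjusted p = 0.283). BAX, a pore-forming apoptosis protein, had 132 ± 14 CPM in the combination, 131 ± 18.7 CPM with 5-FU, 96.4 ± 3.86 CPM with chloroquine and 98.7 ± 10.2 CPM in vehicle, with no call (SD, interaction 0.039 ± 0.146 SE).

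**Figure D3:**
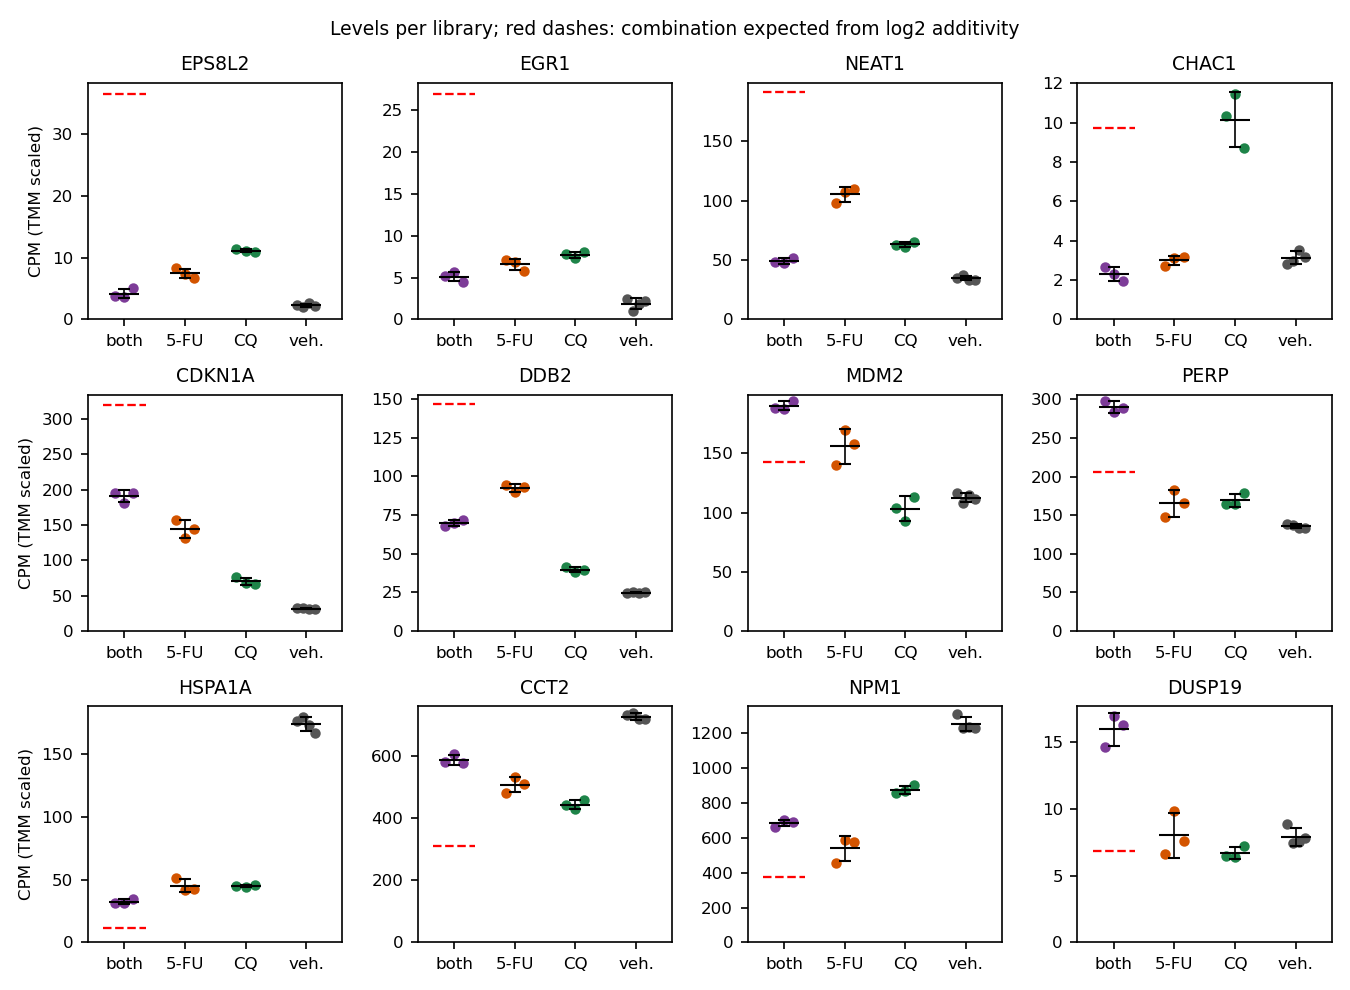
CPM scaled by TMM (y axes, from 0) in each library of 12 genes, for the combination (both), 5-FU, chloroquine (CQ) and vehicle (veh.) from left to right. Points are libraries, black bars the mean and SD, and the red dashes the combination level expected from additive log2 effects: the combination is under the dashes in EPS8L2, EGR1, NEAT1, CHAC1, CDKN1A and DDB2 and over them in the other 6.

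Heat shock genes, which code for chaperones under the control of HSF1, departed from additivity almost uniformly. All 15 members fell with chloroquine, and with 5-FU 13 fell and 1 rose. In the combination only 12 were below vehicle and 2 were above it. By the interaction 14 of 15 were above additive (93.3%), with a median of 0.755, against 20.6% of all genes. Among all 2118 genes that both drugs lowered 76.9% were above additive, so a high share is usual for genes with such single effects. HSPB1 was the member not called. HSPA1A, an inducible HSP70, had 31.3, 31.7 and 34.5 CPM in the combination, 51, 41.8 and 42.7 CPM with 5-FU, 44.7, 44.3 and 45.5 CPM with chloroquine and 176, 179.8, 173 and 167 CPM in vehicle. All treated libraries were far below vehicle, and the combination was the lowest group, though not as low as the 11.6 CPM that additivity gives (interaction 1.48 ± 0.099, edgeR adjusted p = 1.44e-07). HSPA1B gave 1.53 ± 0.0831, but it is a near-identical copy and reads of the pair cannot be divided with certainty. No member other than this pair was below both single drugs. HSPA8, the constitutive HSC70, had 1437, 1457 and 1421 CPM in the combination, 1276, 1291 and 1277 CPM with 5-FU, 1813, 1879.8 and 1735 CPM with chloroquine and 2708, 2753, 2726 and 2859.8 CPM in vehicle. The combination lay above 5-FU and below chloroquine (interaction 0.78 ± 0.0472). DNAJB1, an HSP40 cochaperone, had 219.8, 222 and 216 CPM in the combination, 204, 183 and 198 CPM with 5-FU, 136, 142 and 134 CPM with chloroquine and 218, 213, 214 and 204 CPM in vehicle. Each drug alone lowered it, but the combination overlapped vehicle and stood above both single drugs (interaction 0.80 ± 0.068, edgeR adjusted p = 1.34e-06). HSPH1, HSP90AA1, HSPD1, CHORDC1 and DNAJA1, all chaperones or cochaperones, had interactions of 0.83 ± 0.0637, 0.66 ± 0.0892, 0.68 ± 0.0733, 1.03 ± 0.157 and 0.52 ± 0.0807.

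Promoters of 3 heat shock genes are shown because they hold the heat shock element, the binding site of HSF1, searched as GAANNTTCNNGAA and its reverse complement TTCNNGAANNTTC. Each runs from 250 bases before to 50 after a gene start (RefSeq, GRCh38.p14, minus strand, 5′ to 3′), at chr11:123062087-123062386 for HSPA8, chr14:102086995-102087294 for HSP90AA1 and chr2:197499791-197500090 for HSPD1. For the last 2 genes it is 1 of 2 entries. Capitals mark the matches, which overlap in HSPD1.
HSPA8: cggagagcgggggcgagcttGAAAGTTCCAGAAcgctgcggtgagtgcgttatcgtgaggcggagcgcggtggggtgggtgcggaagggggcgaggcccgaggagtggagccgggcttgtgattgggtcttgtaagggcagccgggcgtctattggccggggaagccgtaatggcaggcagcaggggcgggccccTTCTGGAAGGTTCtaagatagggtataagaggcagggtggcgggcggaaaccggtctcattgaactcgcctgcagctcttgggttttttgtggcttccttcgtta
HSP90AA1: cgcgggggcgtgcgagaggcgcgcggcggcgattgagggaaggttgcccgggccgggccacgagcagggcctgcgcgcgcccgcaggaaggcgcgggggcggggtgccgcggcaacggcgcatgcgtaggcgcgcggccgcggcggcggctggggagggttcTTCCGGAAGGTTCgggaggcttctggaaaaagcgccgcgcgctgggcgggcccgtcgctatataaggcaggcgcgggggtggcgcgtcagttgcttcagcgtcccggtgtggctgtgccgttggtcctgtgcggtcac
HSPD1: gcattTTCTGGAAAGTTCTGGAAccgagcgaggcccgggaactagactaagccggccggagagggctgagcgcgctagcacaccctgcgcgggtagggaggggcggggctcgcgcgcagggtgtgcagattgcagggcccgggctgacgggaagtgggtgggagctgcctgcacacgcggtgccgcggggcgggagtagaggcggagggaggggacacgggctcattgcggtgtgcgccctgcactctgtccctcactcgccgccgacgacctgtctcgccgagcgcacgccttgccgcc
The element was found in 6 of the 15 heat shock members, which also include DNAJA1, HSP90AB1 and CHORDC1, and in 172 of all 35116 promoters (0.49%). All 6 were above additive, as were 8 of the 9 members without a match.

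The cytosolic chaperonin, the ring complex that folds actin and tubulin, moved in 1 direction in all its subunits. All 8 subunit genes fell with each drug alone, all 8 remained below vehicle in the combination, and all 8 were above additive (median 0.668). For comparison, 20.6% of all genes and 76.9% of all genes that both drugs lowered were above additive. CCT2 had 582, 607 and 578 CPM in the combination, 484, 532 and 512 CPM with 5-FU, 445, 430.2 and 459 CPM with chloroquine and 733, 741, 719.7 and 719 CPM in vehicle. The combination was above both single drugs and below vehicle (interaction 0.92 ± 0.0597, edgeR adjusted p = 1.1e-07). CCT6A had 465 ± 11.4 CPM in the combination, 458 ± 34.1 CPM with 5-FU, 460.2 ± 8.38 CPM with chloroquine and 785 ± 11.8 CPM in vehicle, with overlapping levels under every treatment (interaction 0.79 ± 0.0672).

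Genes of ribosome assembly, translation and respiration, most of them lowered by at least 1 drug, were above additive more often than all genes. Of all genes 20.6% were above and 19.3% below. In the ribosome biogenesis list 14 of 25 members were above and 1 below, and among 75 cytosolic ribosomal protein genes 38 were above and 2 below (22 above with library sizes alone). The ribosome biogenesis gene below additive was not called without chloroquine 1, 5-FU 3, combination 1 or combination 3, and the 2 ribosomal protein genes below became 1 without chloroquine 1 or combination 2. NPM1, a nucleolar chaperone of ribosome assembly, had 663, 702 and 689.6 CPM in the combination, 455, 588 and 574 CPM with 5-FU, 856, 866 and 902 CPM with chloroquine and 1309, 1229, 1238 and 1228 CPM in vehicle. The combination lay above 5-FU and below chloroquine, with no overlap (interaction 0.86 ± 0.0998, edgeR adjusted p = 1.75e-05). UTP20, a component of the small-subunit processome, and RPS14, a ribosomal protein, had interactions of 0.74 ± 0.0975 and 0.71 ± 0.162. Of 20 cytosolic aminoacyl-tRNA synthetases 7 were above and 1 below. Of 27 nuclear-encoded respiratory chain genes 20 were above and 0 below (median 0.433; 1 below without 5-FU 2). UQCRFS1, the Rieske protein of complex III, had 92.6, 98.3 and 104 CPM in the combination, 79.8, 74.4 and 83.3 CPM with 5-FU, 84.2, 83.7 and 90.4 CPM with chloroquine and 116, 113, 113 and 102 CPM in vehicle. Both drugs lowered it, the combination lay above each and overlapped vehicle, with a lower mean, and the interaction was 0.68 ± 0.089 (edgeR adjusted p = 4.8e-05). Near-identical processed pseudogenes exist for many ribosomal protein genes and may share their reads.

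The mRNAs encoded by mitochondrial DNA went the other way. Of 13, 10 were below additive and 0 above (median -0.768), against 19.3% and 20.6% of all genes. Chloroquine alone had raised 11 and 5-FU 8, and the combination raised 9. MT-ND1, a subunit of complex I, had 1976, 1914 and 1772 CPM in the combination, 2058, 2599.8 and 2459 CPM with 5-FU, 1620.4, 1672 and 1199 CPM with chloroquine and 964, 763, 800.2 and 910.0 CPM in vehicle. The combination lay between the single drugs, and no groups overlapped (interaction -1.13 ± 0.162, edgeR adjusted p = 9.72e-05). In the 8 libraries 4 of the 13 were below additive. Mitochondrial transcripts took 2.61 to 2.85% of counts in the combination, 2.81 to 3.53% with 5-FU, 2.21 to 2.85% with chloroquine and 1.60 to 1.86% in vehicle.

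Cell cycle genes were counted by phase, and the difference between the phases was not tested. In the G2/M and mitosis list 18 of 30 members were above additive and 2 below (median 0.336, and 11 above with library sizes alone). Chloroquine lowered 21 of the 30 and 5-FU 19, and 76.9% of all genes that both drugs lowered were above additive. In the G1/S and DNA replication list 5 of 32 were above (15.6%) and 6 below (18.8%), near the 20.6% and 19.3% of all genes. With library sizes alone, and with a filter at 10 CPM, the G1/S list had 2 above and 11 below, and the 5 above became 3 without vehicle 1, chloroquine 2 or combination 3 and 2 without chloroquine 1. HMMR, a spindle protein, had 104, 109.8 and 96.2 CPM in the combination, 65.1, 93.6 and 77.4 CPM with 5-FU, 105, 105 and 99.5 CPM with chloroquine and 138, 144, 141 and 159 CPM in vehicle. The combination did not differ from chloroquine alone by the test and lay above 5-FU (interaction 0.89 ± 0.139). MAD2L1, a spindle checkpoint protein, had an interaction of 0.71 ± 0.0788 (edgeR adjusted p = 1.21e-05). POLE, the catalytic subunit of DNA polymerase epsilon, was below additive, with 200.4, 197 and 195 CPM in the combination, 386, 316 and 351 CPM with 5-FU, 291, 286 and 266 CPM with chloroquine and 212, 227, 226 and 223 CPM in vehicle. Each drug raised POLE and the combination was below every vehicle library (interaction -1.17 ± 0.0872, edgeR adjusted p = 4.26e-07). GINS1, a part of the replicative helicase, was above additive at 0.70 ± 0.119. MYC had 16.8 ± 1.46 CPM in the combination and 14.3 ± 1.56 CPM with 5-FU, against 73.6 ± 3.54 CPM with chloroquine and 76.3 ± 1.1 CPM in vehicle, and its interaction of 0.28 ± 0.107 did not pass (adjusted p = 0.0503). MYC was called above additive in 8 alternatives, among them DESeq2 (adjusted p = 0.0252), limma-voom (0.0492), the size factors of DESeq2 in edgeR (0.0387), without 5-FU 1 (0.00569) and without combination 1 (0.0236).

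Among genes of pyrimidine, folate and 5-FU metabolism, 9 of 29 were above (31.0%) and 5 below additive (17.2%), against 20.6% and 19.3% of all genes. These counts rest on single libraries: the 5 below became 2 or 3 without any 1 of 10 libraries (all but vehicle 3, 5-FU 2 and combination 3) and 3 with the replicate block, and the 9 above became 15 without 5-FU 1, 14 with DESeq2 and 4 with library sizes alone. TYMS, thymidylate synthase and the target of 5-FU, did not depart: it had 114, 115 and 119 CPM in the combination, 131, 117 and 119 CPM with 5-FU, 92.4, 94.3 and 86.2 CPM with chloroquine and 100.1, 101, 99.7 and 102 CPM in vehicle, an interaction of 0.067 ± 0.0749 (edgeR adjusted p = 0.518). TYMS overlaps ENOSF1 on the other strand. CAD, which carries out the first steps of pyrimidine synthesis, had 141, 136 and 145 CPM in the combination, 282, 208 and 246 CPM with 5-FU, 226, 215 and 218 CPM with chloroquine and 208, 218, 209 and 204 CPM in vehicle. Chloroquine alone did not change it by the test and 5-FU raised it, but the combination was below all other libraries (interaction -0.87 ± 0.11). DHODH, the mitochondrial enzyme of the same pathway, was lowered by each drug and was above additive (0.62 ± 0.112, edgeR adjusted p = 0.000547).

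Of 24 genes induced by ATF4 or the integrated stress response, 14 were below additive (58.3%) and 2 above (8.33%), with a median of -0.342. The shares of all genes were 19.3% and 20.6%. Chloroquine raised 18 of the 24, whereas 5-FU raised 7 and lowered 13, and the combination raised 10 and lowered 11. CHAC1, a glutathione-degrading enzyme induced by ATF4, had 2.68, 2.29 and 1.94 CPM in the combination, 2.71, 3.13 and 3.15 CPM with 5-FU, 10.3, 11.4 and 8.7 CPM with chloroquine and 2.8, 2.97, 3.55 and 3.2 CPM in vehicle. Only the chloroquine libraries were high, and the combination was below vehicle (log2 -0.44 ± 0.146, edgeR adjusted p = 0.0191; interaction -2.07 ± 0.203, adjusted p = 4.18e-06). VEGFA, an angiogenic growth factor, showed the same order, with 13.4, 13.2 and 13.5 CPM in the combination, 20.7, 16.4 and 21.4 CPM with 5-FU, 65.7, 64.8 and 61.1 CPM with chloroquine and 32.2, 33.4, 33.1 and 36.1 CPM in vehicle. Chloroquine raised it alone and lowered it in the presence of 5-FU (log2 -0.54 ± 0.0898, edgeR adjusted p = 0.00029), an interaction of -1.47 ± 0.116. ASNS, asparagine synthetase, followed at 1.37 ± 0.373 CPM in the combination, 1.95 ± 0.187 CPM with 5-FU, 5.5 ± 0.793 CPM with chloroquine and 3.35 ± 0.388 CPM in vehicle (interaction -1.21 ± 0.262). In other members both drugs acted in the same direction. ATF3, a stress-induced repressor, and PPP1R15A, the GADD34 phosphatase subunit, were raised by each drug and had interactions of -1.15 ± 0.102 and -1.15 ± 0.121. DDIT3, the transcription factor CHOP, had 54.4, 53.4 and 60.1 CPM in the combination, 47.5, 42.2 and 40.4 CPM with 5-FU, 12.9, 13 and 15.8 CPM with chloroquine and 6.81, 7.36, 6.13 and 6.86 CPM in vehicle. The combination was above both drugs, and its departure was -0.66 ± 0.129 on the log2 scale but +5.48 CPM on the linear scale. TRIB3, a pseudokinase that feeds back on ATF4, was an exception, above additive at 0.65 ± 0.121, with the combination above both drugs.

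The promoter of CHAC1 is shown because it holds a match to the composite element bound by C/EBP and ATF factors, searched as TGATGNAA and its reverse complement TTNCATCA. It spans chr15:40953221-40953520 (RefSeq, GRCh38.p14, plus strand, 5′ to 3′), and capitals mark the match, which is on the reverse strand.
CHAC1: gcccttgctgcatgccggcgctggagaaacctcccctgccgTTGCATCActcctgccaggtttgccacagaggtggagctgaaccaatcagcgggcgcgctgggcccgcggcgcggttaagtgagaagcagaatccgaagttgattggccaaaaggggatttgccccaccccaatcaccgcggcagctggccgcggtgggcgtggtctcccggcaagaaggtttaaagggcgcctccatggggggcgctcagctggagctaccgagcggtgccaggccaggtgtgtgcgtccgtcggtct
The element was found in 5 of 19 members with an entry, CHAC1, ASNS, SLC3A2, ATF3 and CEBPG, and in 1270 of all 35116 promoters (3.62%). The first 4 were below additive and CEBPG was not called.

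Chloroquine acts on the lysosome and on autophagy. For the lists that follow, the shares of all genes were 19.3% below additive and 20.6% above. In the lysosome list 14 of 35 genes were below additive (40.0%) and 3 above, and the count above was 6 without vehicle 4 and 5 without 5-FU 1, with DESeq2 or its size factors, with the replicate block and with GC and length offsets. The autophagy list was near the shares of all genes, with 9 of 34 below (26.5%) and 7 above (20.6%). It had 14 below and 4 above with library sizes alone, and 5 below in the 8 libraries. In the V-ATPase list, the proton pump of lysosomes, 1 of 16 was below (2 without chloroquine 3 or 5-FU 2) and 6 above (3 above in the 8 libraries and 2 with library sizes alone). ARSA, a lysosomal sulfatase, had 12.8, 11.8 and 16 CPM in the combination, 38.7, 27.2 and 33.1 CPM with 5-FU, 23, 24.1 and 28 CPM with chloroquine and 23.1, 21.7, 22.1 and 18.8 CPM in vehicle. 5-FU alone raised it and the combination was below all other groups (interaction -1.51 ± 0.182, edgeR adjusted p = 2.45e-05). CTSL, the protease cathepsin L, had 73.7 ± 2.14 CPM in the combination, 48.3 ± 2.21 CPM with 5-FU, 68.5 ± 3.01 CPM with chloroquine and 77.9 ± 3.46 CPM in vehicle, so the fall seen with each drug alone was not called with both (interaction 0.79 ± 0.0798). ULK1, the kinase that starts autophagy, had 62.6, 60.7 and 65.7 CPM in the combination, 138, 102 and 112 CPM with 5-FU, 85.5, 85.2 and 86.2 CPM with chloroquine and 76, 76.2, 77.5 and 73.7 CPM in vehicle. The combination was below each of the other groups although 5-FU alone raised the gene (interaction -1.07 ± 0.115, edgeR adjusted p = 9.19e-06). ATG2A, a lipid transfer protein of the growing autophagosome, also fell short (-0.86 ± 0.149). ATG5 and ATG3, which conjugate LC3 to lipid, were above additive at 0.54 ± 0.0855 and 0.70 ± 0.117, with the combination above both drugs. MAP1LC3B, which encodes LC3B, and SQSTM1, the cargo receptor p62, were not called (interactions -0.076 ± 0.0953 and -0.27 ± 0.137, edgeR adjusted p = 0.572 and 0.137). SQSTM1 was called below additive in 5 alternatives: library sizes alone (-0.41, adjusted p = 0.0232), the filter at 10 CPM (0.0323), the term for COL1A2 libraries (0.0161), without 5-FU 2 (0.0387) and without combination 3 (0.0395).

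Cholesterol synthesis and uptake genes, which respond to SREBP2, showed opposed single effects: chloroquine raised 11 of 24 and 5-FU lowered 13. In the interaction 9 were above additive (37.5%) and 2 below (8.33%), against 20.6% and 19.3% of all genes. With GC and length offsets 4 were below. INSIG1, a sterol-regulated retention protein, had 126, 128 and 122 CPM in the combination, 36.5, 39 and 41.9 CPM with 5-FU, 189, 191 and 195 CPM with chloroquine and 96.1, 86.2, 91.8 and 87.7 CPM in vehicle. The 4 groups did not overlap, and the combination lay between vehicle and chloroquine. Chloroquine raised INSIG1 by 1.08 ± 0.053 alone and by 1.68 ± 0.0601 in the presence of 5-FU, a difference of 0.59 ± 0.0799 on the log2 scale (edgeR adjusted p = 6.01e-05), whereas on the linear scale the departure was -15.3 CPM. MSMO1, a methylsterol oxidase, had 91.1, 95.7 and 86.7 CPM in the combination, 34, 45.4 and 41.8 CPM with 5-FU, 78.2, 76 and 83.5 CPM with chloroquine and 59.7, 64.7, 57.1 and 57.6 CPM in vehicle (interaction 0.77 ± 0.12). HMGCS1, which makes HMG-CoA, gave 0.34 ± 0.0855, a call lost in the 8 libraries (adjusted p = 0.0614), with library sizes alone (0.0903) and with GC and length offsets (0.103). LSS, lanosterol synthase, was below additive, with the combination below each single drug (-0.77 ± 0.125, edgeR adjusted p = 0.000253).

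NRF2 and antioxidant genes had 7 of 19 members above additive (36.8%) and 3 below (15.8%), against 20.6% and 19.3% of all genes. The count below was 5 without 5-FU 2, with library sizes alone and with the filter at 10 CPM. HMOX1, heme oxygenase, had 28.4, 28 and 28.7 CPM in the combination, 107, 92.8 and 96.7 CPM with 5-FU, 7.76, 10.2 and 7.52 CPM with chloroquine and 17.9, 17.6, 17.3 and 17.4 CPM in vehicle. 5-FU raised it and chloroquine lowered it, and with both it was above vehicle but far below 5-FU (interaction -0.76 ± 0.125, edgeR adjusted p = 0.000269). TXN, thioredoxin, was lowered by each drug and not called against vehicle in the combination, with 314, 311 and 348 CPM in the combination, 205, 226 and 229 CPM with 5-FU, 278, 277 and 301 CPM with chloroquine and 394, 378, 357 and 314 CPM in vehicle (interaction 0.90 ± 0.107). SLC7A11, the cystine transporter, had 4.48 ± 0.338 CPM in the combination and 4.81 ± 0.494 CPM with 5-FU, against 39.2 ± 3.29 CPM with chloroquine and 26.9 ± 0.696 CPM in vehicle: the rise with chloroquine was not seen in the presence of 5-FU (interaction -0.64 ± 0.125).

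Nuclear long RNAs and snoRNA host genes had 7 of 12 members below additive and 1 above, against 19.3% and 20.6% of all genes. The count above was 4 with the replicate block, 3 without vehicle 4 and 2 without chloroquine 3, 5-FU 1 or combination 2. NEAT1, the scaffold RNA of paraspeckles, had 48.4, 47.8 and 52.1 CPM in the combination, 98.1, 108 and 110.3 CPM with 5-FU, 62.9, 61.2 and 65.6 CPM with chloroquine and 35, 37.5, 33.6 and 33.3 CPM in vehicle. All 4 groups were separate, and the combination was above vehicle but below both drugs, where additivity would give 191 CPM (interaction -1.95 ± 0.0881, edgeR adjusted p = 4.56e-09). SNHG12, a snoRNA host, had 28.9, 30.4 and 30.0 CPM in the combination, 68.6, 64.7 and 65.4 CPM with 5-FU, 61.1, 63.3 and 64.4 CPM with chloroquine and 48.6, 45.5, 49.8 and 45.7 CPM in vehicle. Each drug raised it, and the combination was below every vehicle library (interaction -1.56 ± 0.0745). MIR17HG, the host transcript of the miR-17-92 cluster, was lowered by each drug and further by both, with 4.37, 4.9 and 4.74 CPM in the combination, 9.97, 12.4 and 10.4 CPM with 5-FU, 16.8, 18.6 and 18.9 CPM with chloroquine and 21.6, 23.1, 23.2 and 21 CPM in vehicle. It is 1 of the 12 genes lowered by both and below additive (interaction -0.93 ± 0.124, edgeR adjusted p = 5.42e-05).

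Genes whose combined effect went further than the sum were few where both drugs acted the same way. PERP, a p53-induced membrane protein of desmosomes, had 298, 283 and 289 CPM in the combination, 148, 182 and 166 CPM with 5-FU, 164, 164 and 179 CPM with chloroquine and 138, 138, 134 and 133 CPM in vehicle. Each drug alone gave a small rise and all combination libraries were far above them (interaction 0.49 ± 0.0898, edgeR adjusted p = 0.000617). SWAP70, an actin-binding protein, and HSD17B7, an enzyme of cholesterol synthesis, were the other named genes among the 15 raised by both and above additive, at 0.43 ± 0.0733 and 0.32 ± 0.0915. HSD17B7 did not pass with library sizes alone, with a filter at 10 CPM (adjusted p = 0.0516) or with GC and length offsets. On the downward side, RABGGTA, a subunit of the enzyme that lipidates Rab proteins, had 4.54, 4.94 and 5.15 CPM in the combination, 10.4, 7.82 and 10.2 CPM with 5-FU, 9.18, 9.5 and 10.2 CPM with chloroquine and 11.6, 10.8, 12.2 and 11.7 CPM in vehicle (interaction -0.69 ± 0.145), and SFXN2, a mitochondrial sideroflexin, -0.46 ± 0.0801.

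Of the genes that neither drug changed by the test, 565 had both a called interaction and a called change in the combination, 296 up and 269 down. DUSP19, a dual-specificity phosphatase, had 14.6, 16.9 and 16.2 CPM in the combination, 6.59, 9.84 and 7.62 CPM with 5-FU, 6.47, 6.42 and 7.23 CPM with chloroquine and 8.85, 7.42, 7.49 and 7.84 CPM in vehicle. The combination libraries were above all 10 others (log2 against vehicle 1.01 ± 0.114, edgeR adjusted p = 3.53e-06; interaction 1.23 ± 0.174). XIAP, an inhibitor of caspases, had 162, 141 and 161 CPM in the combination, 81.4, 92 and 89.9 CPM with 5-FU, 102, 96.6 and 119 CPM with chloroquine and 99.4, 91.9, 91.4 and 83.4 CPM in vehicle, again with the combination above the rest (interaction 0.61 ± 0.118, edgeR adjusted p = 0.00105). TMCO6 had 4.93, 4.05 and 4.56 CPM in the combination, 12.9, 11.2 and 12.6 CPM with 5-FU, 12.3, 12.2 and 13.4 CPM with chloroquine and 11.5, 10.4, 13.1 and 13.5 CPM in vehicle. Here the combination was below all others (interaction -1.49 ± 0.146), and its exons overlap those of NDUFA2 on the other strand. MAMDC4 and AGRN, which encodes the proteoglycan agrin, had interactions of -1.48 ± 0.189 and -1.40 ± 0.176, with the combination below both drugs and vehicle. Within the apoptosis machinery list, to which XIAP belongs, 7 of 25 members were above additive (28.0%) and 10 below (40.0%), against 20.6% and 19.3% of all genes. The count below was 5 without 5-FU 3, 4 without a filter and 2 in the 8 libraries, and the count above was 3 in the 8 libraries and 4 with library sizes alone.

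Of 167 genes that chloroquine raised, 5-FU lowered and the interaction placed below additive, the combination was below both single drugs in 45, between them in 17 and not separated from at least 1 of them in 105. KCNAB3, a potassium channel subunit, had 1.26, 0.989 and 1.85 CPM in the combination, 3.2, 2.71 and 3.07 CPM with 5-FU, 10.1, 11.4 and 9.61 CPM with chloroquine and 5.88, 5.36, 4.47 and 5.1 CPM in vehicle. Chloroquine raised it, 5-FU lowered it and the combination was lowest (interaction -2.13 ± 0.237, edgeR adjusted p = 1.28e-05). DOK3, an adaptor protein, and BTNL9, a butyrophilin-like protein, showed the same order, at -1.78 ± 0.162 and -1.69 ± 0.104. PAQR6, a membrane progestin receptor, was raised by chloroquine alone and was below vehicle in the combination, with 8.7, 8.9 and 8.98 CPM in the combination, 17.9, 12.5 and 14.4 CPM with 5-FU, 37, 36.6 and 36.5 CPM with chloroquine and 14.5, 16.1, 15.7 and 14.6 CPM in vehicle (interaction -2.02 ± 0.136). BAIAP3, a relative of the Munc13 vesicle priming proteins, had 5.97, 5.93 and 7.31 CPM in the combination, 43.2, 28.2 and 32.8 CPM with 5-FU, 5.46, 6.02 and 5.54 CPM with chloroquine and 6.65, 6.51, 5.69 and 5.31 CPM in vehicle. Its rise with 5-FU was not seen when chloroquine was present (log2 of the combination against vehicle 0.088 ± 0.152, edgeR adjusted p = 0.656; interaction -2.35 ± 0.211). SAP30, a subunit of the SIN3 histone deacetylase complex, was lowered by chloroquine alone and raised by it in the presence of 5-FU (log2 -0.69 and 0.42; interaction 1.11 ± 0.163).

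**Figure D4:**
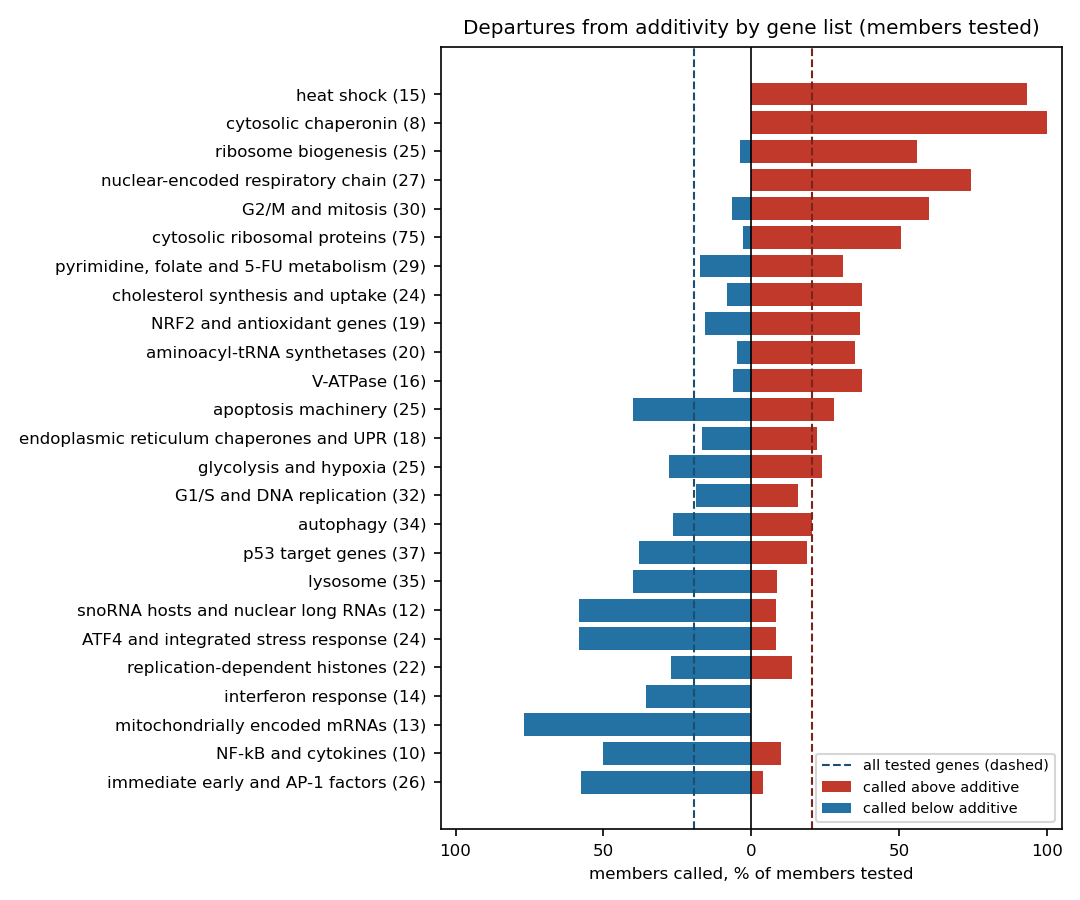
Share of tested members called above additive (red, right) and below additive (blue, left) for 25 gene lists, with the number tested in parentheses and the lists in order of their median interaction. Dashed lines give the shares of all tested genes, 20.6% above and 19.3% below. Heat shock (14 of 15 above) and chaperonin genes (8 of 8) stand at the top and immediate early genes (15 of 26 below) at the bottom.

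Small structured RNAs had high positive values and a wide spread between libraries. RN7SL1, an RNA of the signal recognition particle, had 228, 108 and 438 CPM in the combination, 104, 33.7 and 93.9 CPM with 5-FU, 15.3, 17 and 34.4 CPM with chloroquine and 64.9, 31.5, 26.9 and 13.1 CPM in vehicle. The combination libraries were above all others but far apart from each other, and the other groups overlapped (interaction 2.37 ± 0.789, edgeR adjusted p = 0.0272). The call was lost without vehicle 1, chloroquine 1, chloroquine 2 or combination 3 (adjusted p = 0.0682, 0.0708, 0.0701 and 0.0842). BCYRN1, a primate brain cytoplasmic RNA derived from an Alu element, had 323, 273 and 350.0 CPM in the combination, 209.7, 243 and 323 CPM with 5-FU, 47.1, 43 and 50.1 CPM with chloroquine and 149, 117, 155 and 81.6 CPM in vehicle (interaction 1.72 ± 0.277). Both belong to multicopy families whose reads cannot be placed with certainty.

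Departures moved with the GC content of transcripts. With genes divided into 4 equal bins, from the lowest to the highest by GC content of the longest GENCODE transcript, 33.9%, 24.8%, 17.2% and 7.59% were above additive and 8.64%, 13.6%, 22.5% and 33.2% below. Single libraries were tilted too. The median log2 difference from vehicle of the highest GC bin exceeded that of the lowest by -0.0515, -0.103 and 0.136 in combination 1 to 3, by 0.777, 0.155 and 0.366 in 5-FU 1 to 3, by 0.0538 to 0.0624 with chloroquine and by -0.0740 to 0.0397 in vehicle. The tilt was highest with 5-FU alone and varied between its libraries. Its part in the departures was not tested beyond the fit that follows. With an offset for GC content and length in each library, 7756 genes were called, and 5924 of the 7791 were called again with the same sign. In that fit 15 heat shock, 8 chaperonin, 18 ribosome biogenesis and 16 nuclear respiratory chain members were above additive, and 13 immediate early, 12 integrated stress response and 15 p53 target members below. Within the same bins, 56.2%, 64.2%, 76.6% and 85.8% of genes raised by both drugs were below additive, and 87.8%, 84.1%, 70.0% and 48.6% of those lowered by both were above, all over the shares of all genes in the bin. These classes and the interaction are computed from the same vehicle, chloroquine and 5-FU libraries, which favours such shares in every bin. They are given as a description, and the part of GC content in them was not tested.

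**Figure D5:**
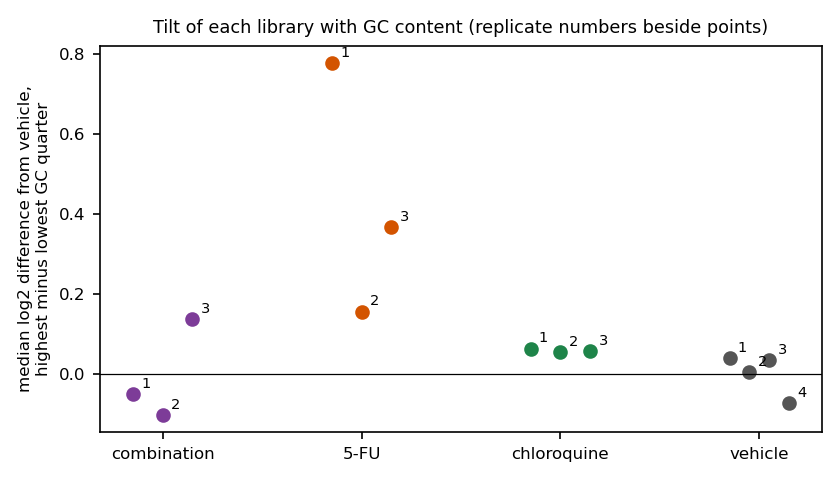
Median log2 difference from the vehicle mean in the highest GC bin of genes minus that in the lowest bin (y axis), per library, for the combination, 5-FU, chloroquine and vehicle from left to right, with replicate numbers beside the points. The 5-FU libraries lie at 0.155 to 0.777, above every other library.

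Classes of genes differed as well. Antisense genes were below additive in 25.2% and above in 3.05%, long intergenic RNAs in 21.5% and 4.08%, and processed pseudogenes in 2.34% and 19.6%, against 20.8% and 24.7% of protein-coding genes. Neither the strand setting nor the placing of reads shared by a pseudogene and its parent was stated.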

How the data were processed

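RNA was sequenced from 13 libraries of TE11 cells, and the authors deposited 1 table of raw counts per gene, with no normalization in its values. Per the submitters' processing notes, the tools include DESeq and the build is GRCm38, which is of mouse, whereas the deposited table holds human gene symbols. No source used here gives the aligner, the counting program or the strand setting. Of 60591 genes, 20102 had no count and 19514 passed edgeR's filterByExpr.

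Counts were scaled by TMM and fitted over all 13 libraries with 1 mean per group (R 4.3.3, edgeR 4.0.16, limma 3.58.1, quasi-likelihood test, Benjamini-Hochberg adjustment over all tested genes, threshold 0.05). SEs are the log2 value divided by the root of F. The interaction was a contrast of the 4 means. CPM are TMM-scaled. The fit was also run on counts simulated gene by gene around 1 mean per group. These held no shift common to a whole library, such as the tilt with GC content, so they cannot show its part. Alternatives were other scalings, filters, DESeq2 1.42.0, limma-voom, a replicate block, libraries left out and, chosen after seeing the data, GC and length offsets (18760 tested genes, 96.1%, had a GC value from GENCODE release 29). Columns without a sample numbered 0. Same-numbered libraries had residual correlations of -0.448 to 0.743 and were above 0.1 in all 3 pairs for 5-FU and combination only, so the numbers were not taken to pair libraries.

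Genes and lists were chosen with earlier results of these data known. Named genes were the 8 highest and 8 lowest interactions, the 3 highest and 3 lowest of each class of single effects, up to 2 in each direction of every list that had 3 called members or more, and 17 genes whatever their result. The first pair of rules required the same call in the 8 libraries and an average log2 CPM no lower than 1, and left out clone-style gene symbols. The rules gave 141 genes, and the text names only part of them, picked to describe its groups. Of the other genes in the text, HSPH1, HSPA8, DNAJB1, HSP90AA1, HSPD1, CHORDC1, DNAJA1, VEGFA, ASNS, PPP1R15A, ZFP36, JUNB, ZMAT3, PHLDA3, TNFRSF10B, RRM2B, TIGAR, PMAIP1 and the list members TRIAP1, CCNG1, HSPB1, HSP90AB1, SLC3A2, CEBPG and EGR2 were chosen after their values were seen. Promoters came from RefSeq (GRCh38.p14).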

Additional observations from a re-analysis of the deposited data

Results flagged for a closer look

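The interaction term tests whether the effect of chloroquine differs with and without 5-FU, and it did so for 7791 genes (edgeR, adjusted p under 0.05). Of the 19514 genes tested, 1760 had a called interaction and a chloroquine effect called in opposite directions with and without 5-FU. Most named genes were chosen by their interaction, which is the difference of these 2 effects. Opposite directions among them are therefore partly set by that choice, and their number is a description only. Of the named genes, 40 had a chloroquine effect called in opposite directions in the combination against 5-FU and in chloroquine against vehicle. Raised by chloroquine alone and lowered by it with 5-FU present were 19 of them. Their interactions on the log2 scale were -3.35 for SLC34A3, -3.12 for EPS8L2, -2.71 for MYO15B, -2.66 for ANKRD1, -2.57 for EIF4A1, -2.13 for KCNAB3, -2.02 for PAQR6, -1.95 for NEAT1, -1.80 for RELB, -1.78 for DOK3, -1.73 for ZFP36, -1.69 for BTNL9, -1.56 for SNHG12, -1.47 for VEGFA, -1.29 for JUNB, -1.17 for POLE, -1.13 for MT-ND1, -1.07 for DDB2 and -0.77 for LSS.

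Lowered by chloroquine alone and raised by it with 5-FU present were 21. Chaperone genes among them had interactions of 0.52 for DNAJA1, 0.68 for HSPD1, 0.78 for HSPA8, 0.80 for DNAJB1, 0.83 for HSPH1 and 0.92 for CCT2. Genes of respiration, translation and ribosome assembly had 0.68 for UQCRFS1, 0.68 for SDHD, 0.71 for RPS14, 0.74 for UTP20 and 0.86 for NPM1. Cell cycle genes had 0.70 for GINS1, 0.71 for MAD2L1 and 0.89 for HMMR. The rest were 0.54 for ATG5, 0.70 for ATG3, 0.79 for CTSL, 0.64 for ACAT2, 0.65 for TRIB3, 0.90 for TXN and 1.11 for SAP30.

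In 6 named genes 1 of the 4 vehicle libraries stood far from the others by Dixon's criterion, which chance meets in about 1 in 20 groups. In all 106 groups of vehicle values were examined, named genes and library measures together. BBC3 was low in vehicle 2 (12.2 CPM) and CTSL low in vehicle 4 (72.7 CPM). CTSK was high in vehicle 4 (3.40 CPM), HSP90AA1 high in vehicle 2 (3908.5 CPM), NPM1 high in vehicle 1 (1309 CPM) and SQSTM1 high in vehicle 2 (36.3 CPM).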

How the results depend on the processing

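The number of genes called was 7888 with the size factors of DESeq2, 7442 with library sizes alone, 7460 without a filter, 5610 at 10 CPM in 3 libraries, 7373 with DESeq2, 7897 with limma-voom, 8832 with a term for COL1A2 libraries, 5544 in the 8 libraries, 7756 with GC and length offsets and 6747 to 8237 with 1 library left out, and in none of these was a called gene called in the opposite direction. With the replicate number as a block 7729 genes were called, 7170 of them also called without it; 5-FU and combination libraries correlated by number, as a hint from the data only. Above-additive calls fell to 2379 with library sizes alone, and calls along the sum to 328 in the 8 libraries. On the linear scale CDKN1A (8.06 CPM), DDIT3 (5.48 CPM) and INSIG1 (-15.3 CPM) had the opposite sign, and PMAIP1, not called, was -0.20 with GC and length offsets. Of 1150 counts of list members under alternatives, in all 25 lists together, 115 moved by over 1.5 times. Of 2360 values of named genes, 31 lost and 13 gained the call and 1 reversed; most of these genes were chosen for extreme values, many also for the same call in the 8 libraries, so the tally is no measure of stability. Sizes moved also where a call held. Across the alternatives ULK1 ranged from -1.21 to -0.64, CAD from -1.01 to -0.53 and NEAT1 from -2.09 to -1.91. The causes were not tested. Genes near 3 counts a library, such as GDF15, are limited by depth, and chloroquine rests on 1 library among the 8.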

Other observations

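Other lists showed no common direction, where 20.6% of all genes were above additive and 19.3% below. Of 18 endoplasmic reticulum chaperone and unfolded protein response genes 4 were above additive and 3 below (7 above without chloroquine 3, and 1 above and 0 below in the 8 libraries), of 25 glycolysis and hypoxia genes 6 were above and 7 below (11 above with GC and length offsets), and of 22 replication-dependent histone genes 3 were above and 6 below (5 above and 3 below in the 8 libraries). Among marker lists, 1 of 5 squamous differentiation genes was above and 1 below, 2 of 9 basal epithelial genes were above and 3 below, and 2 of 7 leukocyte genes were below. No endothelial gene (of 2) and no blood or salivary gene (of 4) was called, with median interactions of -1.01 and -0.771.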
